A study of Saccharomyces cerevisiae with 8 samples.

Results

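Deletion of PSH1 was examined in budding yeast that already lacked CAC2, by comparing the 2 psh1 cac2 libraries (strain GH194) with the 2 cac2 libraries (strain GH182), which are 4 of the 8 libraries of the series. The other 4 libraries came from a psh1 strain (GH72) and from WT (GH69), and served to measure PSH1 loss where CAC2 was present. Duplicate cultures of Saccharomyces cerevisiae were grown in raffinose medium, and 4% galactose was given for 10 h so that every culture, WT included, overproduced the centromeric histone H3 variant Cse4. Ribosome-depleted total RNA was sequenced, and 6366 of the 7126 rows of the expression table had a mean of at least 1 RPKM (reads per kilobase of feature, scaled to the size of the library) over the 8 libraries and were tested. Reads assigned to features numbered 30767522 to 34561763 a library. Each genotype was a single strain, and no culture without Cse4 induction was analysed here. With duplicate cultures of 1 strain per genotype, p-values measure only the spread between these samples.

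Psh1 is a ubiquitin ligase that marks Cse4 for degradation and so limits its presence outside centromeres. Cac2 is a subunit of the chromatin assembly factor CAF-1, a histone chaperone that deposits histones H3 and H4 on newly replicated DNA. When both are missing, both a route of Cse4 removal and a main route of replication-coupled nucleosome assembly are absent.

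The deleted genes were checked first. PSH1 had 2 and 1 reads in the psh1 cac2 libraries, against 932 and 1032 reads in the cac2 libraries. CAC2 had 7 and 4 reads in the psh1 cac2 libraries, against 1 and 2 reads in the cac2 libraries, and 837 to 1155 reads in the 4 libraries that carry the gene. Both genes were thus near 0 in the libraries labelled as lacking them. The genes on either side of PSH1, AIM39 and THI20, differed by 0.14 and -0.06 on the log2 scale in psh1 cac2 against cac2 and did not pass the test. In psh1 against WT, AIM39 was higher by 0.42 (limma adjusted p = 0.016) and THI20 differed by -0.19 (limma adjusted p = 0.103). CSE4 had 23546 and 22798 RPKM in the psh1 cac2 libraries, against 17956 and 19968 RPKM in the cac2 libraries, where the groups did not overlap. In this direction that held for 27.9% of all features. The log2 difference in CSE4 was 0.29 with an SE of 0.08, and it did not pass the test (limma adjusted p = 0.102). HIS3, an enzyme gene of histidine synthesis that is often used as a selection marker, had 6689 and 6898 RPKM in the psh1 cac2 libraries, against 11703 and 8773 RPKM in the cac2 libraries (limma adjusted p = 0.102).

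A block of abundant small nucleolar RNAs was lower, and a small group of genes of the start of the cell cycle was higher, in psh1 cac2 than in cac2 cells. At a limma adjusted p under 0.05, 57 of 6366 features passed, or 0.895%. Of these, 25 rose, or 0.393% of those tested, and 32 fell, or 0.503%. Only 3 of the 57, PSH1, HUG1 and the isoleucine tRNA gene tI(UAU)D, differed by at least 2-fold on the log2(RPKM + 1) scale. The calls rest on all 4 libraries: without psh1 cac2 replicate 1, psh1 cac2 replicate 2 or cac2 replicate 1 only 2 features passed, PSH1 and tI(UAU)D, and without cac2 replicate 2 there were 4. Without either psh1 library there were 27 and without either WT library 32, since all libraries share the estimate of the spread. When the RPKM values were rescaled to plain read totals, 106 features were called higher and 34 lower, and the median of all features then lay at 0.04.

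**Figure D1:**
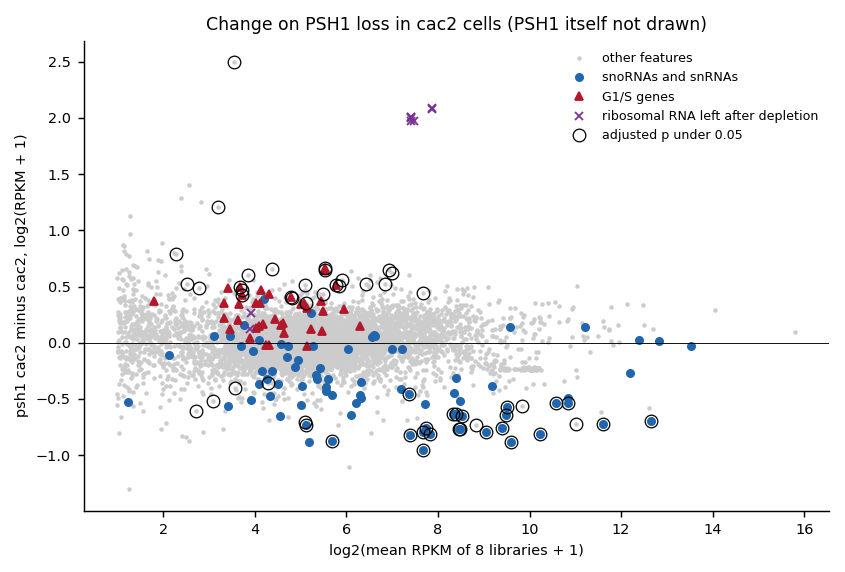
Each point is 1 feature, with the log2 of its mean RPKM plus 1 over 8 libraries on the x axis and the psh1 cac2 minus cac2 difference on the log2(RPKM + 1) scale on the y axis. Circles mark the features with an adjusted p under 0.05; blue snoRNAs and snRNAs make up most of the circled points below 0, and the crosses, most of them near 2, are ribosomal RNA left after depletion with 1 frame inside it, none of which passed the test.

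The small nucleolar RNAs (snoRNAs) guide chemical modification of other RNAs, mainly ribosomal RNA, and a few take part in cutting the ribosomal precursor. Box H/ACA snoRNAs direct the conversion of uridine to pseudouridine and carry an ACA near their 3′ end. Box C/D snoRNAs direct methylation of riboses and carry a C box near the 5′ end and a D box near the 3′ end. The genes of 2 H/ACA and 2 C/D members that fell are shown because the class of the RNA, its length and its place in the genome enter the comparison. Sequences are the sense strand from RefSeq assembly R64, whose browser name is sacCer3. Capitals mark the ACA that lies 3 bases from the end in the H/ACA genes, and in the C/D genes the TGATGA of the C box and the CTGA of the D box. Not every member that fell holds these letters at its annotated ends. SNR3 and SNR43 lacked the ACA at that place and SNR4 lacked the TGATGA, and they are not shown. SNR34 lies at chrXII:899180-899382 and SNR11 at chrXIII:652275-652532, both on the + strand. SNR190 lies at chrX:139761-139950 and SNR52 at chrV:431129-431220, both on the - strand.
SNR34: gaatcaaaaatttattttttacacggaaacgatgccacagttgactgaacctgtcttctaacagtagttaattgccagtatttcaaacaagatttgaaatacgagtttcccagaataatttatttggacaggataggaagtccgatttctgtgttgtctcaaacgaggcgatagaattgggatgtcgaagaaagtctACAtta
SNR11: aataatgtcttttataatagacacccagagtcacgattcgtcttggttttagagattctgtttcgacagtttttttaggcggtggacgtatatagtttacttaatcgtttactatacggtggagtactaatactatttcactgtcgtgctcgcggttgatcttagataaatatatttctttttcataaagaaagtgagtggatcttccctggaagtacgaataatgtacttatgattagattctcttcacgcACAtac
SNR190: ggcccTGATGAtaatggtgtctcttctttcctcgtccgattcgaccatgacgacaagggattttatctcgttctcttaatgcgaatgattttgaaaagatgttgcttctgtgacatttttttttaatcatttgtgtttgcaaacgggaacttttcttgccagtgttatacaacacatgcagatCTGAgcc
SNR52: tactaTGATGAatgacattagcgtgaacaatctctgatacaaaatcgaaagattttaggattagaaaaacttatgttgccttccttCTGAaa

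Of 82 box snoRNAs and spliceosomal snRNAs tested, 23 fell and 0 rose. Their median difference was -0.40 on the log2 scale, beside -0.01 for all features tested. The libraries did not overlap and psh1 cac2 was lower for 55 of the 82, whereas that was so for 29.0% of all features. The test on reads recovered from the RPKM steps (limma voom) called 24 lower and 0 higher, where it called 33 features lower in all, or 0.518%. Together with NME1, the RNA of the nuclease RNase MRP, these RNAs made up 24 of the 32 features that fell. None of the 82 was called when any 1 of the 4 libraries was left out, while the median then stayed between -0.52 and -0.32.

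Of 29 H/ACA snoRNAs 13 fell, the median difference was -0.64, and in 26 the psh1 cac2 libraries were both below the cac2 libraries. SNR11 had 119 and 120 RPKM in the psh1 cac2 libraries, against 240 and 225 RPKM in the cac2 libraries. Its log2 difference of -0.95 (SE 0.16, limma adjusted p = 0.0485) was the most negative of the snoRNAs. SNR34 had 230 and 225 RPKM in the psh1 cac2 libraries, against 398 and 378 RPKM in the cac2 libraries, a log2 difference of -0.77 (SE 0.08, limma adjusted p = 0.0199). In both genes the cac2 libraries lay within the range of, or close to, the psh1 and WT libraries, and the psh1 cac2 libraries stood below all the other 6. The guides SNR32, SNR3, SNR43, SNR31 and SNR46 fell by 0.76 to 0.82 on the log2 scale. SNR10, which is also needed for efficient processing of the ribosomal precursor, had 2250 and 2067 RPKM in the psh1 cac2 libraries, against 3675 and 3449 RPKM in the cac2 libraries. The frame YGL088W overlaps SNR10 and shares its reads, so its call is no separate result.

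Of 45 snoRNAs annotated as C/D, 5 fell (SNR4, SNR190, SNR63, SNR52 and SNR70) and the median difference was -0.25. This class is mostly short: the 5 C/D snoRNAs of 150 nt or more had a median of -0.79 and 4 of them fell, whereas the 40 shorter ones had a median of -0.18 and 1 of them fell. No test of a difference between the classes was run. SNR190 had 808 and 799 RPKM in the psh1 cac2 libraries, against 1511 and 1311 RPKM in the cac2 libraries, a log2 difference of -0.81 (SE 0.11, limma adjusted p = 0.037). SNR4, a C/D RNA that takes part in acetylation of the small subunit RNA, had 507 and 532 RPKM in the psh1 cac2 libraries, against 1009 and 909 RPKM in the cac2 libraries. For both RNAs every psh1 cac2 value was below every other library of the series. SNR52, which unlike the other snoRNA genes is transcribed by RNA polymerase III, had 24.3 and 21.0 RPKM in the psh1 cac2 libraries, against 36.7 and 39.5 RPKM in the cac2 libraries. The value of SNR52 rests on 65 to 118 reads in these 4 libraries, and its adjusted p with voom was 0.067. The copies of the U3 snoRNA, SNR17A and SNR17B, which serves in precursor cutting, fell by 0.69 and 0.76 on the log2 scale, and their reads may have been assigned to either copy. The annotation gave U3 no class, so both copies were left out of the 45 and of the 5 long ones.

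Among the 6 spliceosomal RNA genes 3 fell: SNR14, the U4 RNA, and the overlapping long and short forms of U5, SNR7-L and SNR7-S, which share reads. SNR14 had 35.3 and 39.5 RPKM in the psh1 cac2 libraries, against 72.8 and 65.6 RPKM in the cac2 libraries, a log2 difference of -0.87 (SE 0.10, limma adjusted p = 0.0199). NME1 fell by 0.56 on the log2 scale, with 645 and 671 RPKM in the psh1 cac2 libraries, against 1022 and 927 RPKM in the cac2 libraries. Its relative RPR1, the RNA of RNase P, differed by -0.34 and did not pass (limma adjusted p = 0.073). U6, SNR6, differed by -0.51 (limma adjusted p = 0.237).

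The longest structured RNAs did not move in this direction. SNR30, an H/ACA RNA needed to release the small subunit RNA, differed by 0.02, and SNR84 and SNR86 differed by 0.14 each. The U1 RNA SNR19 and the U2 RNA LSR1 differed by 0.02 and -0.03. The signal recognition particle RNA SCR1 and the telomerase RNA TLC1 differed by 0.09 and 0.05, and none of these 7 passed the test. By length, 22 of the 41 snoRNAs and snRNAs with 150 nt or more fell, and their median difference was -0.64. Of the 41 shorter ones 1 fell, and their median difference was -0.22. The longer ones were also more abundant, with a median of 356 RPKM, against 29.9 RPKM for the shorter ones. Of the shorter ones 40 were C/D snoRNAs and 1 was U6, and all H/ACA snoRNAs were in the longer class. Within the longer class the medians were -0.64 for 29 H/ACA and -0.79 for 5 C/D snoRNAs, with U3 in neither group. The part of length and of abundance in these differences was not tested. All snoRNAs and snRNAs together took 2.99% and 3.17% of the reads in the psh1 cac2 libraries, against 3.39% and 3.17% in the cac2 libraries. Most of these reads came from RNAs that did not pass the test. Of 1022120 such reads in psh1 cac2 replicate 1, LSR1 had 458435, SNR19 137721 and SNR30 104972. The shares are thus not a total for the RNAs that fell. Of the ribosomal RNA left after depletion, RDN25-1, a 25S gene copy, had 309 and 170 RPKM in the psh1 cac2 libraries, against 105 and 29.9 RPKM in the cac2 libraries (limma adjusted p = 0.147). In the WT libraries it had 381 and 109 RPKM, which spans the psh1 cac2 values, and replicate 1 was above replicate 2 in all 4 genotypes. With the replicate number as a block in the model, its difference of 2.00 had a limma adjusted p of 0.0109. That model called 520 features in psh1 cac2 against cac2. The part of this residue, of size selection and of depletion in the snoRNA values was not tested.

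**Figure D2:**
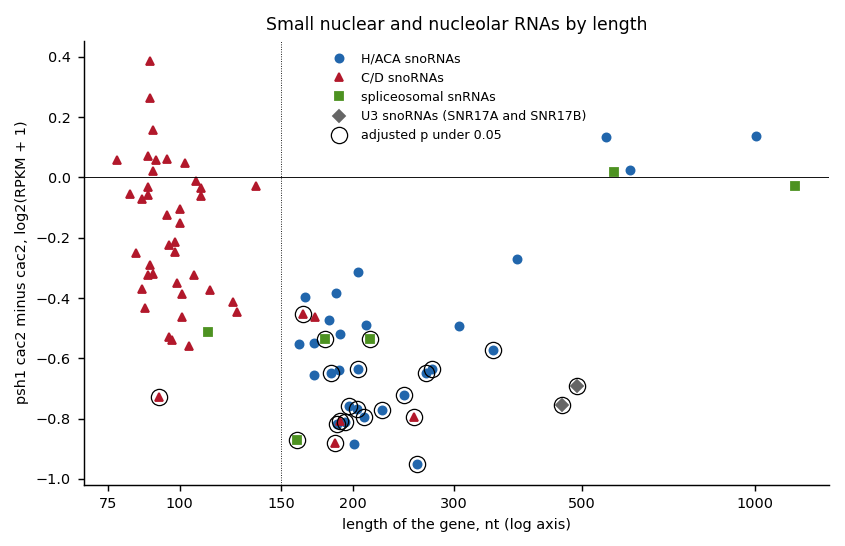
Each point is 1 snoRNA or snRNA gene, with its length in nt on a log x axis and the psh1 cac2 minus cac2 difference on the log2(RPKM + 1) scale on the y axis, and the dotted line stands at 150 nt. Circles mark an adjusted p under 0.05: 22 of 41 genes right of the line are circled, and 1 of 41 left of it.

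The RNAs of genes for proteins that carry or process snoRNAs did not show the shift. Of 30 genes for snoRNP proteins and snoRNA processing, 0 rose and 0 fell by limma, 1 was higher and 3 lower at an unadjusted p under 0.05, and voom called 0. Their median difference was 0.00. Ribosome biogenesis genes gave 0 calls of 115 by limma and by voom, with 1 lower at an unadjusted p under 0.05 and a median of -0.02. The 138 cytoplasmic ribosomal protein genes gave 0 calls by both tests, yet 137 lay above 0, with a median of 0.24 and 62 higher at an unadjusted p under 0.05. At that threshold 11.8% of all features were higher and 12% lower. Their summed level was 23802 and 21597 RPKM in the psh1 cac2 libraries, against 20153 and 18152 RPKM in the cac2 libraries.

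Of the gene lists examined, that of the G1 to S phase transition held the most genes that rose. This programme is switched on by the transcription factors SBF and MBF and covers G1 cyclins, replication proteins and nucleotide synthesis. Of 37 G1/S genes 6 rose and 0 fell, with a median of 0.30 on the log2 scale. At an unadjusted p under 0.05, 25 of the 37 were higher, and voom called 7 higher, where it called 36 features higher in all, or 0.566%. In bulk cultures a larger share of cells at this stage and more RNA per cell cannot be told apart.

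POL30, which encodes the replication clamp PCNA, had 48.7 and 48.5 RPKM in the psh1 cac2 libraries, against 29.3 and 31.1 RPKM in the cac2 libraries. Its log2 difference was 0.67 (SE 0.08, limma adjusted p = 0.0276). PCL1, a G1 cyclin of the kinase Pho85, had 50.8 and 47.0 RPKM in the psh1 cac2 libraries, against 31.5 and 30.2 RPKM in the cac2 libraries, a log2 difference of 0.65 (SE 0.07, limma adjusted p = 0.0199). In both genes the psh1 cac2 values were above the WT values of 39.6 and 45.5 RPKM for POL30 and 43.5 and 46.4 RPKM for PCL1. The G1 cyclin CLN1 had 26.9 and 24.9 RPKM in the psh1 cac2 libraries, against 19.5 and 19.1 RPKM in the cac2 libraries. TOS4, a promoter-bound protein of the G1/S programme, TOS6, a cell wall protein, and YOX1, a homeodomain repressor of genes of the M to G1 interval, rose by 0.50, 0.52 and 0.42 on the log2 scale.

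The promoters of POL30 and TOS4 are shown since they hold the letters bound by MBF (ACGCGT) or SBF (CNCGAAA). Each holds 250 bases before the start codon and the first 50 bases of the coding region, in the direction of the gene, from RefSeq assembly R64, with matches on either strand in capitals. In POL30 the motifs overlap by 1 base. POL30 lies at chrII:425717-426016 and TOS4 at chrXII:521963-522262, both on the - strand.
POL30: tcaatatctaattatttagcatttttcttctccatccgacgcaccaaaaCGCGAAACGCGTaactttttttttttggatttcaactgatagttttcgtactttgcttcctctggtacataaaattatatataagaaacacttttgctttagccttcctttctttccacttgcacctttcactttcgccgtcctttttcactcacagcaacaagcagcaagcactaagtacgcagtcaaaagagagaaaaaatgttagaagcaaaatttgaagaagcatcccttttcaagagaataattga
TOS4: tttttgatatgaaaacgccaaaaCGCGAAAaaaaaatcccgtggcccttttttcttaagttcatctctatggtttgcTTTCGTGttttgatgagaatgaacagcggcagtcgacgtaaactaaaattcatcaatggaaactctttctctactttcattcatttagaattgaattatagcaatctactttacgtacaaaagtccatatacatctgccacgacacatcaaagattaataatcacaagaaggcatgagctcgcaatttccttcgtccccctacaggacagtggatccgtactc

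ACGCGT was present in 16 of 37 G1/S promoters, or 43.2%, and in 3.11% of all 5827 promoters of the same length. Among 22 promoters of genes that rose it was present in 2, or 9.09%. CNCGAAA was present in 7 of these 22, or 31.8%, in 9 of 37 G1/S promoters, or 24.3%, and in 13.9% of all promoters. Other motifs scored in the 22 lay above or below their share of all promoters. GATAAG was present in 6, or 27.3%, and in 14.7% of all. CCAAT was present in 7, or 31.8%, and in 43.3% of all. No test of these shares was run. YOX1, RNR4 and HUG1 each held 1 CNCGAAA, and these windows of CLN1, PCL1 and TOS6 held neither motif. These are matches of letters, not measured binding.

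HUG1, a small inhibitor of ribonucleotide reductase whose transcription follows the DNA damage checkpoint, had the largest difference of the protein-coding genes that rose. It had 14.4 and 11.8 RPKM in the psh1 cac2 libraries, against 5.06 RPKM in each cac2 library. The log2 difference was 1.21 (SE 0.13, limma adjusted p = 0.0199), and it rests on 99 and 82 reads in the psh1 cac2 libraries, against 32 and 34 in the cac2 libraries. RNR4, a small subunit gene of the same enzyme, had 197 and 192 RPKM in the psh1 cac2 libraries, against 138 and 148 RPKM in the cac2 libraries (log2 difference 0.44, limma adjusted p = 0.0499). The WT libraries had 5.55 and 5.35 RPKM of HUG1, below psh1 cac2, and 200 and 216 RPKM of RNR4, above it. HUG1 and RNR4 were the 2 of 19 DNA damage response genes that rose against cac2, none fell, and the list's median was 0.16. RNR3, the damage-induced large subunit, differed by 0.16 and did not pass (limma adjusted p = 0.155).

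**Figure D3:**
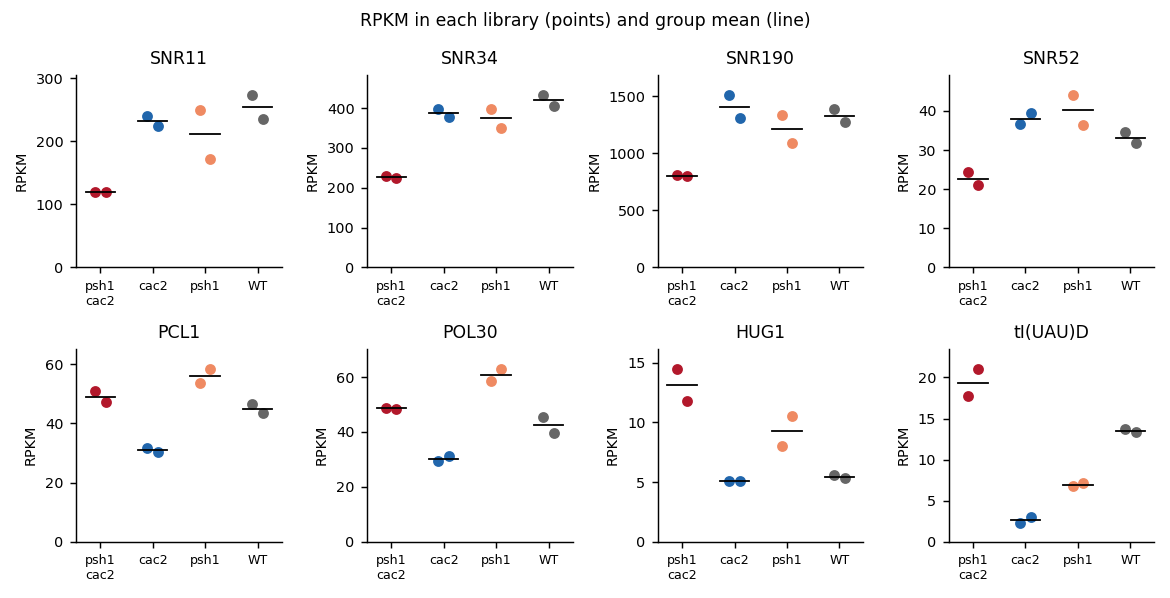
Points are the RPKM of single libraries and lines the mean of the 2 libraries of a genotype, on linear axes from 0. The 4 snoRNAs of the top row are lowest in psh1 cac2; PCL1, POL30 and HUG1 are higher in psh1 cac2 than in cac2; and tI(UAU)D stands at 17.7 and 21.0 RPKM in psh1 cac2, against 2.22 and 3.01 RPKM in cac2.

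Other stages of the cell cycle gave few calls. All 30 G2/M genes lay above 0, with a median of 0.27 and 23 at an unadjusted p under 0.05, but 0 passed by limma or voom. Of 29 genes of daughter cells and the M to G1 interval 1 fell, PRY3, a cell wall protein, by 0.36 on the log2 scale. The septum and daughter cell genes EGT2, SCW11 and CTS1, picked out after their values were seen, differed by -0.36, -0.35 and -0.31, with limma adjusted p of 0.0729, 0.0633 and 0.0917. The 10 histone genes all lay above 0 and all were at an unadjusted p under 0.05, with a median of 0.32. None of them passed with limma, whereas voom called 2. Summed over the 10 genes, the level was 3003 and 2843 RPKM in the psh1 cac2 libraries, against 2260 and 2380 RPKM in the cac2 libraries. The 51 kinetochore, passenger complex and checkpoint genes, whose products meet Cse4 nucleosomes, gave 0 calls by limma and by voom, with a median of 0.04 and 10 higher and 2 lower at an unadjusted p under 0.05. The 18 histone chaperone genes gave 0 calls by both tests, with a median of 0.01 and 1 higher at an unadjusted p under 0.05.

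The remaining calls were spread over metabolism, the cell wall and sporulation. PHO84, the high-affinity phosphate transporter, had 264 and 276 RPKM in the psh1 cac2 libraries, against 509 and 399 RPKM in the cac2 libraries, a log2 difference of -0.74 (SE 0.11, limma adjusted p = 0.037). It was the 1 of 26 phosphate regulon genes that fell by limma, none rose, and 22 of the 26 lay below 0 with a median of -0.19. At an unadjusted p under 0.05, 15 of the 26 were lower and 1 higher, and voom called 3 lower. The second inducible transporter of the list, PHO89, differed by -0.69 and did not pass with limma (adjusted p = 0.063), whereas its adjusted p with voom was 0.043. CYC7, the minor isoform of cytochrome c, had 96.2 and 109 RPKM in the psh1 cac2 libraries, against 63.4 and 66.3 RPKM in the cac2 libraries, and was the 1 of 43 oxidative phosphorylation genes that rose, with a median of 0.16 for the list. The WT libraries had 112 and 123 RPKM of CYC7, above both psh1 cac2 libraries. SCW10, a cell wall glucanase, rose by 0.62, and the mannose isomerase gene PMI40 and the biotin synthesis gene BIO4 rose by 0.50 and 0.51 on the log2 scale. Of 31 meiosis and sporulation genes DIT1, of spore wall synthesis, and the meiotic kinase IME2 rose by 0.60 and 0.49, and CRR1, also of the spore wall, fell by 0.51. AIM20 and HTC1 rose by 0.65 and 0.55 on the log2 scale. Apart from the tRNA gene described next, the feature without a symbol with the largest rise was YPL205C, by 0.79 on the log2 scale. Its adjusted p with voom was 0.062.

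One tRNA gene stood apart. The gene tI(UAU)D, 1 of 2 genes for the isoleucine tRNA with the anticodon UAU, had 78 and 94 reads in the psh1 cac2 libraries, against 9 and 13 reads in the cac2 libraries. The same gene had 31 and 34 reads in the psh1 libraries, against 57 and 61 reads in the WT libraries. Thus psh1 cac2 was the highest group and cac2 the lowest, and no groups overlapped. On the log2(RPKM + 1) scale the rise with PSH1 loss in cac2 cells was 2.50 (SE 0.12, limma adjusted p = 0.000109). Of the 299 tRNA genes listed, 62 passed the filter on low values, of which 1 rose and 1 fell, tN(GUU)P by 0.71. The fall of tN(GUU)P rests on 73 to 128 reads in the psh1 cac2 and cac2 libraries, and its adjusted p with voom was 0.055.

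RefSeq places tI(UAU)D at chrIV:884361-884493 on the + strand, a gene of 133 bases with a mature tRNA of 73 bases and an intron after the anticodon, which is in capitals.
tI(UAU)D: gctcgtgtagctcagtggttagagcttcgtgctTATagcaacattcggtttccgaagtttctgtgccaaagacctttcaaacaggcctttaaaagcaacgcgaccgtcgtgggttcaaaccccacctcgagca

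The other UAU gene, tI(UAU)L at chrXII:605300-605432, differs by A119T, counted from 1 at the 5′ end of tI(UAU)D. It had 20 and 33 reads in the psh1 cac2 libraries, against 7 and 8 reads in the cac2 libraries, a log2 difference of 1.29 that did not pass (limma adjusted p = 0.071). Near-identical copies can share reads, and how such reads were treated is not given in the sources used here. The coding region of GCD6, a subunit of the translation initiation factor eIF2B, begins after 233 further bases on the same strand. GCD6 had 101 and 102 RPKM in the psh1 cac2 libraries, against 73.0 and 67.5 RPKM in the cac2 libraries, a log2 difference of 0.52 (SE 0.08, limma adjusted p = 0.0397). The part of reads from the start of GCD6 transcripts in the tRNA gene's value was not tested.

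PSH1 loss with CAC2 present was then set beside these values, from psh1 against WT, 4 libraries that are not in the comparison above. There 926 features were called, or 14.5%, with 487 higher, or 7.65%, and 439 lower, or 6.9%. At an unadjusted p under 0.05, 17.3% of features were higher and 14.6% lower there. The 926 became 268 without psh1 replicate 1, 93 without psh1 replicate 2, 203 without WT replicate 1 and 484 without WT replicate 2. Of the 57 features called in cac2 cells 28, or 49.1%, were also called there, which is 3.02% of the 926, and 26 of the 28 had the same sign. The 28 include the deleted PSH1. Both comparisons used the same estimate of the spread of each feature, so their calls are not independent. Over all 6366 features the log2 differences of both comparisons had a Pearson r of 0.38, given as a description across genes, which are not independent. The SD of the differences across features was 0.22 in psh1 cac2 against cac2 and 0.27 in psh1 against WT. CSE4 had 10127 and 9616 RPKM in the psh1 libraries, against 16625 and 14586 RPKM in the WT libraries. Its log2 difference there was -0.66 (limma adjusted p = 0.0071), against 0.29 in cac2 cells. HIS3 differed by -0.87 in psh1 against WT (limma adjusted p = 0.0132). Both comparisons were thus not made at a like level of CSE4 RNA, and its part in the other differences was not tested.

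**Figure D4:**
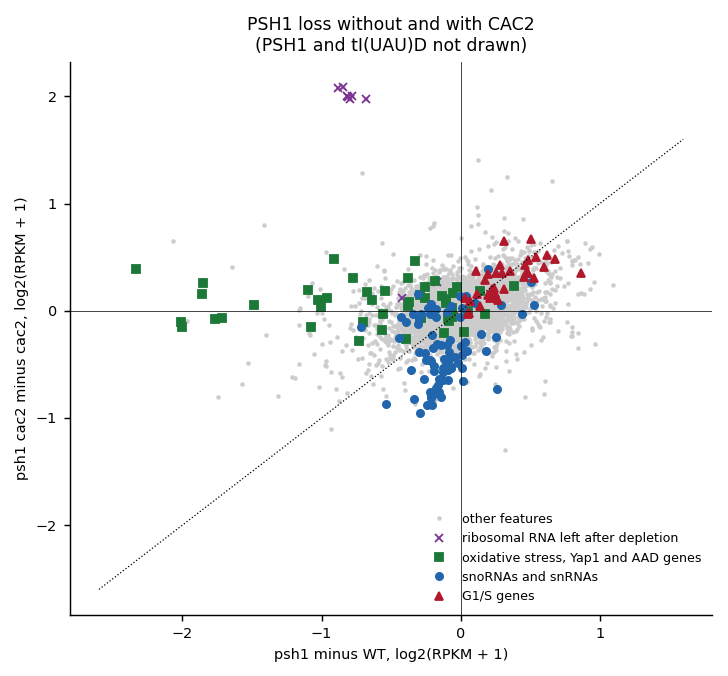
Each point is 1 feature, with the psh1 minus WT difference on the x axis and the psh1 cac2 minus cac2 difference on the y axis, both on the log2(RPKM + 1) scale, and the dotted line marks equal values. Of the 82 snoRNAs and snRNAs 62 lie below the line, the G1/S genes close to it, and the oxidative stress and aryl-alcohol dehydrogenase genes spread to the left at a height near 0.

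The G1/S and histone genes had medians above 0 with and without CAC2. The G1/S genes had medians of 0.30 in psh1 cac2 against cac2 and 0.26 in psh1 against WT, where 20 of 37 rose. The histone genes had medians of 0.32 in psh1 cac2 against cac2 and 0.48 in psh1 against WT, where all 10 rose. For HUG1 the differences were 1.21 in cac2 cells and 0.66 in cells with CAC2. The H/ACA snoRNAs had medians of -0.64 in psh1 cac2 against cac2 and -0.15 in psh1 against WT, where 0 of 29 were called and 2 were lower at an unadjusted p under 0.05. The oxidative stress and Yap1 genes had medians of 0.09 in psh1 cac2 against cac2, with 0 of 42 called by limma and by voom and 3 higher and 2 lower at an unadjusted p under 0.05, and -0.31 in psh1 against WT, where 18 fell. The 6 tested aryl-alcohol dehydrogenase genes had medians of -0.05 in psh1 cac2 against cac2, where 0 were called by limma or voom and 0 passed an unadjusted p of 0.05, and -1.40 in psh1 against WT, where 6 fell. The median of that family was 0.00 with plain read totals and ran from -0.25 to 0.17 on leaving out 1 library. The Ty1 retrotransposon frames, which share reads between copies, had medians of -0.23 in psh1 cac2 against cac2, where 0 of 61 were called by limma or voom although all 61 were lower at an unadjusted p under 0.05, and -0.41 in psh1 against WT, where 59 fell.

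**Figure D5:**
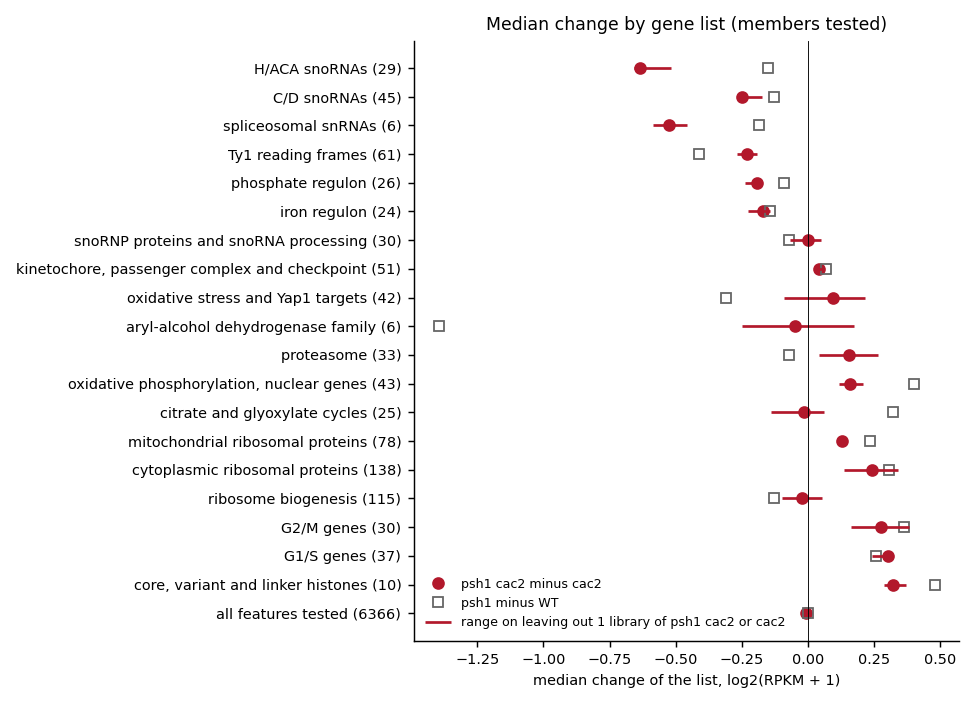
Filled points are the median psh1 cac2 minus cac2 difference of a list, open squares the median psh1 minus WT difference, both on the log2(RPKM + 1) scale, and bars the range of the filled points on leaving out 1 library of psh1 cac2 or cac2. The H/ACA snoRNAs lie further below 0 in psh1 cac2 against cac2 (-0.64) than in psh1 against WT (-0.15), and the aryl-alcohol dehydrogenase genes do the opposite (-0.05 and -1.40).

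The test of the difference itself, the interaction of PSH1 and CAC2 loss, called 1 of 6366 features, or 0.0157%, which was tI(UAU)D with an estimate of 3.36 on the log2 scale (limma adjusted p = 0.000318). At an unadjusted p under 0.05, 866 features passed, or 13.6%. Without cac2 replicate 2 the adjusted test called 41 features, and without any other library 1. Among the H/ACA snoRNAs the median interaction was -0.47, 0 were called and 19 of 29 were lower at an unadjusted p under 0.05, where that held for 6.91% of all features. Among the aryl-alcohol dehydrogenase genes the median was 1.28, 0 were called and all 6 were higher at that threshold, where that held for 6.69% of all features. The estimate for AAD6, a member of that family, was 1.90 with a limma adjusted p of 0.0802. GTT2, a glutathione transferase gene, had 1.69, CSE4 had 0.95 and SNR52 had -0.99 (limma adjusted p of 0.0802, 0.0802 and 0.0872). GCD6, next to the tRNA gene, had 0.82 (limma adjusted p = 0.0802).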

How the data were processed

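The authors deposited 1 table of RPKM values for 8 libraries of 4 genotypes, 2 each. Per the labels' protocols, ribosomal RNA was depleted from 1000 ng of total RNA and libraries were strand-specific. Per the submitters' processing notes, bcl2fastq 2.18, TopHat2 2.0.13, edgeR 3.14.0 and sacCer3 were used, with no role stated. Neither the counting tool nor its strand setting is stated in the sources used here. By locus tag, symbol or synonym 6048, 114 and 7 features matched RefSeq R64, and 957 did not. Whole reads were recovered from the RPKM steps for 7106 features. Of the values of features matched by locus tag, 99.808% were whole within 0.01 reads at reference lengths. For 958 of the 7106 the smallest length that gave whole reads was taken, so their reads may be understated. Among these were tI(UAU)D, tI(UAU)L, tN(GUU)P and YPL205C. The library size behind the RPKM was 0.932 to 1.07 times the recovered total, so the values carry a scaling beyond the total.

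Linear models (limma 3.58.1, R 4.3.3, eBayes with an intensity trend) took log2(RPKM + 1) of the 6366 features averaging 1 RPKM or more, over all 8 libraries with genotype as the term, leaving 4 residual degrees of freedom. This scale understates changes of low genes. P-values were two-sided and Benjamini-Hochberg adjusted over all features, with a threshold of 0.05. Replicate libraries differed by more than sampling noise (chi-square per degree of freedom 27.1 to 46.2), so each library counted as 1 replicate.

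The members and the 66 lists, 16 of them chromosomes, were chosen with earlier results of these data known. Genes named were the deleted genes, CSE4 and HIS3, the 12 called each way with the largest change, up to 4 called members of a list each way, and 3 each way by interaction p. The 12 each way and the features without a symbol had to have groups that did not overlap. For them the lack of overlap is no separate result. PSH1's neighbours, structured RNAs, ribosomal RNA, tI(UAU)L, GCD6, PHO89, RNR3, U6 and daughter cell genes were named after their values were seen. Alternatives covered the pseudocount, filter, scaling, trend, voom on recovered reads, the libraries in the fit, the replicate number and each library left out.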

Additional observations from a re-analysis of the deposited data

Results flagged for a closer look

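The gene tI(UAU)D responded to PSH1 loss in opposite directions with and without CAC2. It was higher in psh1 cac2 than in cac2 by 2.50 and lower in psh1 than in WT by 0.87 on the log2 scale (estimate -0.87), and the interaction of 3.36 passed the test over all features (limma adjusted p = 0.000318). Both psh1 cac2 libraries were above both cac2 libraries, and both psh1 libraries were below both WT libraries. With 2 libraries per genotype no library could be tested for standing apart from its group.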

How the results depend on the processing

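The count of 57 called features in psh1 cac2 against cac2 was 9 without a filter, 12 without the intensity trend, 23 with the compared libraries alone and 140 with plain read totals. It was 50 with a pseudocount of 0.1, 53 with a mean RPKM of at least 5, 48 with quantile normalization, 61 without Ty frames and 69 with voom, which shared 48 of the 57. On leaving out 1 library of any genotype it ran from 2 to 32, and the 57 features kept their sign wherever they were tested. For psh1 against WT the count of 926 was 582 with the compared libraries alone and ran from 93 to 826 on leaving out 1 library. For the interaction the count of 1 was 5 with quantile normalization and 6 with voom, and ran from 1 to 41 on leaving out 1 library, with the 41 coming without cac2 replicate 2. The cause of these differences was not tested. Replicate numbers are shared between genotypes, but no label says that they mark a batch, and deviations of same-numbered libraries correlated by 0.04 between psh1 cac2 and cac2 and by 0.05 between cac2 and psh1, but by 0.31 to 0.44 in the other 4 pairs of genotypes. With the replicate block 520, 1625 and 130 features were called in psh1 cac2 against cac2, psh1 against WT and the interaction. Genes that never passed the test changed sign in psh1 cac2 against cac2 under some alternatives. With quantile normalization AAD6 was 0.0021, and with plain read totals LSR1 was 0.023. On leaving out 1 library AAD6 ran from -0.37 to 0.16, GTT2 from -0.31 to 0.16, AAD15 from -0.33 to 0.19, LSR1 from -0.11 to 0.053, SNR30 from -0.036 to 0.086 and SNR19 from -0.076 to 0.11. Depth limits tI(UAU)D, tI(UAU)L, tN(GUU)P, SNR52, HUG1 and YPL205C, which rest on at most 128 reads a library in the compared genotypes.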
